A study of Mus musculus with 3 samples.

Results

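The keratin genes described here are Krt5, Krt7, Krt8, Krt14, Krt15, Krt17, Krt18 and Krt19, 8 of the 27998 genes in the count files, taken by their symbols in all 3 libraries. Single lung cells of MMTV-HER2/Neu mice were measured with Chromium 3' version 3 chemistry. These mice were kept on the FvB background and carry an activated rat HER2 gene behind a mammary tumour virus promoter, which drives it mainly in mammary epithelium. Every group carries this transgene, and each group is 1 library. The early HER2-negative and early HER2-positive libraries hold CD45-negative cells without and with HER2 at the surface, from mice of 14 to 18 weeks in which no tumour could be felt. The late HER2-positive library holds CD45-negative, HER2-positive cells from mice older than 20 weeks that had primary tumours. The submitters call the HER2-positive cells breast cancer cells, and the HER2-negative cells non-cancer lung cells; the number of pooled mice was not stated.

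Keratins are the intermediate filament proteins of epithelial cells. Each filament pairs an acidic type I keratin with a basic type II keratin, and a cell type is recognised by the pair it makes. KRT8 and KRT18 are the pair of simple, 1-layered epithelia such as the alveoli and the luminal mammary gland, where KRT7 and KRT19 often join them. KRT5 and KRT14 are the pair of basal cells, KRT15 marks basal cells of stratified and airway epithelium, and KRT17 is known from basal cells and from injured epithelium. Krt5, Krt7 and Krt8 encode type II keratins, and the other 5 genes encode type I keratins.

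All 8 genes lie in the keratin clusters of mouse chromosomes 11 and 15 (GENCODE coordinates on GRCm38). Krt15 (100131758 to 100135928), Krt19 (100140810 to 100148665), Krt14 (100203162 to 100207548) and Krt17 (100256217 to 100261029) lie on the minus strand of chromosome 11. On chromosome 15, Krt7 (101411043 to 101430313) and Krt18 (102028180 to 102032027) lie on the plus strand, and Krt5 (101707070 to 101712898) and Krt8 (101996698 to 102004482) on the minus strand. Krt18 is the type I gene that sits at the edge of the type II cluster. It is read away from Krt8, with 23697 bases between them, in which 0 annotated genes lie in full. The annotated genes Gm44323, Gm671 and Gm36026 overlap Krt5, Krt7 and Krt8 on the opposite strand and have no count in these files.

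The start regions of Krt8, Krt18, Krt7 and Krt5 are shown because the results turn on the simple pair, on the alveolar type 1 keratin Krt7 and on the basal keratin Krt5. RefSeq windows (GRCm38.p6, 250 bases before and 50 after a transcript start) were given for 5 of the 8 genes, and the windows below are written in the direction of transcription. Capitals mark the matches on either strand to the 5 motifs searched: the TATA box core TATAAA, its variant ATAAAAG, the SP1 core GGGCGG, the AP-2 core GCCNNNGGC and, for AP-1 factors, TGANTCA.
Krt8, chr15:102004293-102004592, minus strand: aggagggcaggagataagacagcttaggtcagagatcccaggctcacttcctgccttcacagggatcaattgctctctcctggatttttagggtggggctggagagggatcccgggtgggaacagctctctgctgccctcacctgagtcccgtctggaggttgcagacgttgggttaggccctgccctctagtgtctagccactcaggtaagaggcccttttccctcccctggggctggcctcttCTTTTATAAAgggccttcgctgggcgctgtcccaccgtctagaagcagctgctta
Krt18, chr15:102027966-102028265, plus strand: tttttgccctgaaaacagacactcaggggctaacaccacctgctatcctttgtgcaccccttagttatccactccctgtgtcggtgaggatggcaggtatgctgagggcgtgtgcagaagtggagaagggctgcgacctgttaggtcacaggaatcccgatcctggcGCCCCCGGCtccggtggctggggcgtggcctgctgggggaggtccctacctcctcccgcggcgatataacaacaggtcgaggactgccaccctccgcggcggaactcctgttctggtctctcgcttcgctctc
Krt7, chr15:101412153-101412452, plus strand: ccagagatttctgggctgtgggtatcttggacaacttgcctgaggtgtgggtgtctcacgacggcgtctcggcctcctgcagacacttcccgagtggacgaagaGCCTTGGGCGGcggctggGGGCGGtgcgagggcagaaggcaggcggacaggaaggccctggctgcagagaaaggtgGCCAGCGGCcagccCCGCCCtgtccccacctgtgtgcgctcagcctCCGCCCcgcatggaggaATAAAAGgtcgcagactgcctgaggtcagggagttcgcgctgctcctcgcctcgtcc
Krt5, chr15:101712856-101713155, minus strand: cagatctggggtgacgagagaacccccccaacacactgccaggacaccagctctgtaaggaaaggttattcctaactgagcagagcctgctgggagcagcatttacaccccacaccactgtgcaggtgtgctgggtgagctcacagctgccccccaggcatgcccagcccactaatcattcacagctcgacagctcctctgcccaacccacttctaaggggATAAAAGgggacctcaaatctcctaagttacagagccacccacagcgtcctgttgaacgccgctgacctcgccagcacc

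The capitals of Krt8 join TATAAA at bases 250 to 255, TATAAA on the opposite strand at bases 248 to 253 and ATAAAAG on the opposite strand at bases 246 to 252. In the Krt18 window the 1 match is to GCCNNNGGC, the core of the motif bound by the AP-2 factors, at bases 168 to 176. The Krt7 window holds GGGCGG, the core bound by SP1 and its relatives, at 4 places, GCCNNNGGC at 2 places, of which 1 overlaps a GGGCGG, and ATAAAAG at bases 244 to 250. Krt5 holds ATAAAAG at bases 222 to 228. TGANTCA, the core bound by AP-1 factors, is in none of the 5 windows, and the Krt14 window holds no match to any of the motifs. Over 32851 RefSeq windows of this kind, TATAAA was found in 13.6%, ATAAAAG in 5.42%, GGGCGG in 35.7%, GCCNNNGGC in 16.6% and TGANTCA in 7.81%. The RefSeq start used for the window lies 140 bases from the GENCODE gene start for Krt8, 36 for Krt18, 1360 for Krt7 and 7 for Krt5. A match in these letters is a description and not a bound site.

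Barcodes with at least 1000 UMIs (unique molecular identifiers, the counted RNA molecules) and under 25% mitochondrial UMIs were kept as cells: 6416, 7622 and 6012 cells in the order of the groups above, an order kept wherever 3 values are given, with 23039097, 44541222 and 51075059 UMIs and medians of 3166, 5318 and 8075 UMIs per cell. Each cell took the class of the rule it met first: mammary (the milk protein genes Csn3 and Wfdc18 at 1% of UMIs or more), alveolar type 2 (surfactant gene Sftpc at 10% or more), alveolar type 1 (Ager and Rtkn2, 4 UMIs or more), ciliated (Foxj1 and Ccdc153, 3 or more), club (Cyp2f2, 3 or more), endothelial (Cldn5 and Cdh5, 2 or more) or mural (Higd1b, Cox4i2 and Myh11, 2 or more). The cells that met no rule are called remaining. Markers that the rules did not use were present in their classes, with exceptions in the alveolar type 1 and club classes. Lamp3 lay at 1012 to 1200 CPM (counts-per-million, the UMIs of a gene relative to all UMIs of the class) in alveolar type 2 cells, Hopx at 3716 to 7315 CPM in alveolar type 1 cells, Pecam1 at 1649 to 1812 CPM in endothelial cells, Pdgfrb at 1270 to 1497 CPM in mural cells, and Gata3 at 299.6 CPM in mammary cells. The alveolar type 1 class also held club markers, whose summed level was 11.41, 13040 and 203600 CPM in the 3 libraries, against 34240, 22230 and 17110 CPM for its own 7 markers. Ptprc, the CD45 gene, was at 0.157 to 0.955 CPM in the 3 libraries. Most cells of the HER2-positive libraries carried lung genes: 3939 of the early and 3996 of the late cells were alveolar type 2, and the mammary class held 161 late cells and 0 early cells. Erbb2, to which transcripts of the mouse gene are assigned, was at 307.4 CPM in mammary cells and at 16.2 to 19.7 CPM in alveolar type 2 cells of the 3 libraries. Whether and how transcripts of the rat transgene were counted was not stated.

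The rules overlapped. In the 3 libraries 82, 3479 and 3694 cells met more than 1 rule, mainly alveolar type 2 cells that also met the alveolar type 1 rule (36, 3057 and 3422 cells). The early pair, the HER2-negative and late pair and the HER2-positive pair shared 18, 14 and 10 cell barcodes, at most 0.281% of either library. With independent barcodes 7.20, 5.68 and 6.74 would be expected, and the cause of the higher numbers was not tested. With 1 library per group no test between libraries was made, and stage, age, sort and animal cannot be told apart from the library. Levels carry exact Poisson 95% intervals, which cover counting error only. UMIs come from the 3' ends of transcripts and are not divided by length, so a ratio between different genes is a ratio of UMIs.

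The simple keratins Krt8, Krt18, Krt7 and Krt19 were spread over all epithelial classes, each with its own order. Krt8 was highest in ciliated cells, at 1026 CPM (952 to 1104) in the early and 984.4 CPM (927.1 to 1044) in the late HER2-positive library. Mammary cells followed at 727.3 CPM (700.1 to 755.3), alveolar type 1 cells at 370.7, 406.2 and 425.2 CPM in the 3 libraries, club cells at 258.7 and 266.4 CPM in the HER2-positive libraries, and alveolar type 2 cells at 258.5, 222.5 and 255.4 CPM. The intervals of the 2 ciliated values overlapped, as did those of the 2 club values and of the late club and late alveolar type 2 values, while ciliated, mammary and alveolar type 1 levels stood apart from each other.

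**Figure D1:**
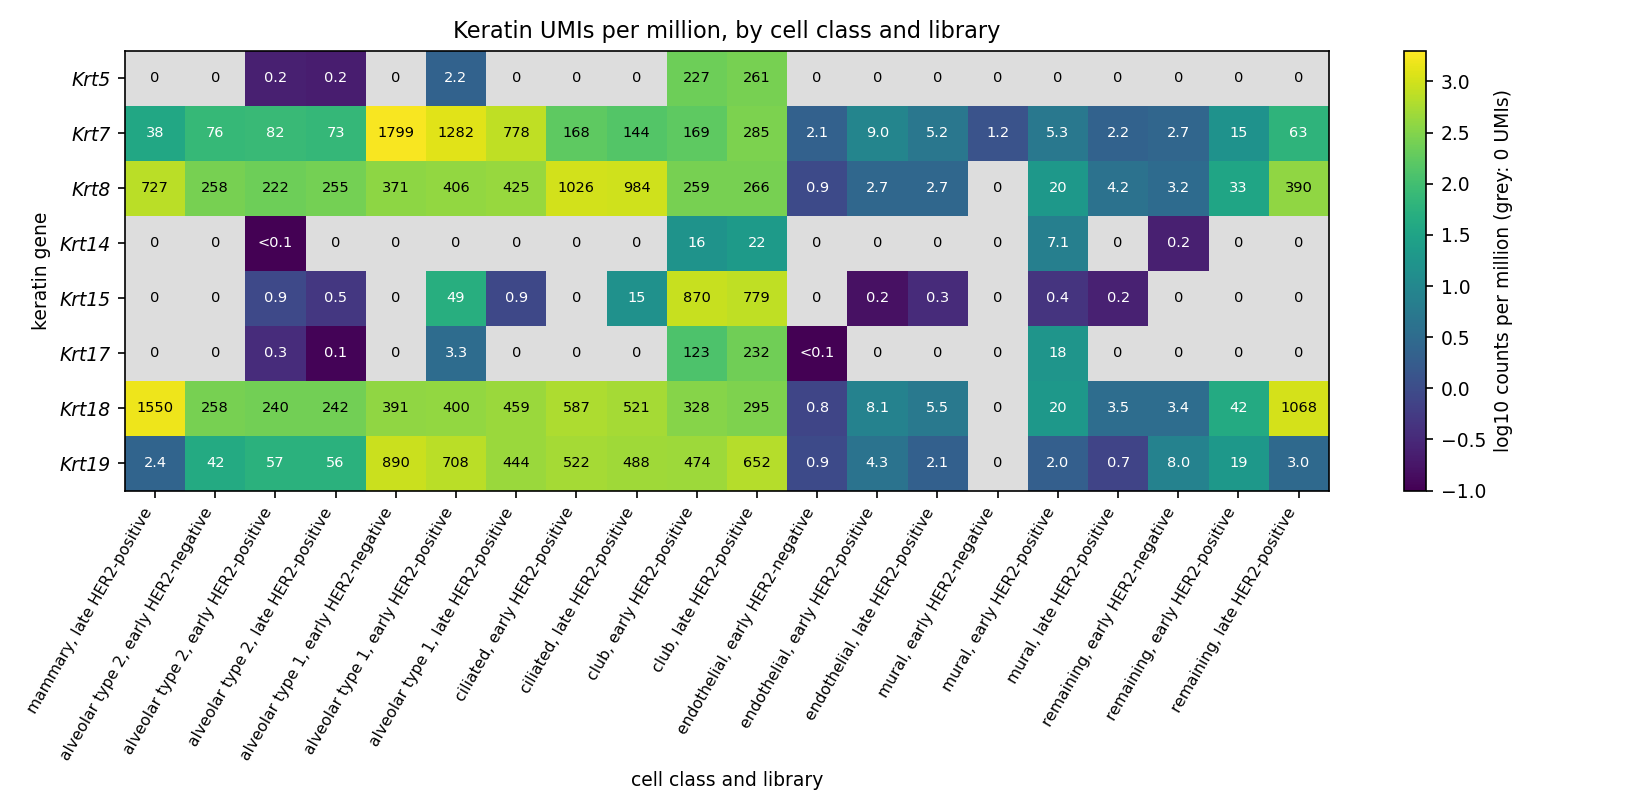
Levels of the 8 keratin genes (rows) in each library and cell class (columns) in CPM, with the colour on a log10 scale and grey for 0 UMIs; each cell of the map is 1 library and class, with no replicates. Krt8 and Krt18 are high in all epithelial classes, Krt7 peaks in alveolar type 1 cells, Krt18 in mammary cells, Krt5 and Krt15 are highest in the club class, and early Krt14 and Krt17 also appear in the mural class.

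Krt18, the usual type I partner of Krt8, had another order. Its level was highest in mammary cells at 1550 CPM (1510 to 1591), followed by the remaining cells of the late library at 1068 CPM (1005 to 1134). Ciliated cells had 586.7 and 521.2 CPM, alveolar type 1 cells 390.7, 400.1 and 458.9 CPM, club cells 328.3 and 295.4 CPM, and alveolar type 2 cells 258.5, 239.6 and 241.6 CPM. Below the remaining cells, each of these HER2-positive groups overlapped its neighbour in the order except at the step from late club to alveolar type 2 cells.

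Krt7 and Krt19 peaked in the flat alveolar type 1 cells and in airway cells. Krt7 was at 1799 CPM (1662 to 1946) in the alveolar type 1 cells of the early HER2-negative library, at 1282 CPM (1230 to 1335) in the early and at 777.7 CPM (727.7 to 830.2) in the late HER2-positive library. It was lower in club cells (169.1 and 285.1 CPM), ciliated cells (168.1 and 143.7 CPM), alveolar type 2 cells (75.9, 82.0 and 73.1 CPM) and mammary cells (38.1 CPM). Krt19, a type I keratin without the tail domain of its relatives, was at 889.8, 707.8 and 444.2 CPM in alveolar type 1 cells, at 473.6 and 652.2 CPM in club cells, at 521.5 and 488.2 CPM in ciliated cells and at 42.2, 56.8 and 56.5 CPM in alveolar type 2 cells. In mammary cells Krt19 was at 2.43 CPM (1.11 to 4.62), 9 UMIs in 5 of 161 cells. Mammary cells were thus the epithelial class with high Krt8 and Krt18 and the lowest Krt7 and Krt19.

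Krt5 and Krt15 lay mostly in 1 class, and so did Krt14 and Krt17 in the late library only. Of the Krt5 UMIs, 114 of 125 in the early and 153 of 161 in the late HER2-positive library lay in club cells, which were 57 and 55 cells. The club share of Krt15 was 78.9% of 554 and 92.3% of 494 UMIs, and that of Krt17 39.5% of 157 and 97.1% of 140 UMIs. Krt14 was rare, with 42 early and 13 late UMIs, of which 19.1% and 100% lay in club cells. In the early library the mural class held 50.3% of the Krt17 and 76.2% of the Krt14 UMIs, all in 1 cell described further on. In the early HER2-negative library Krt5 and Krt15 had 0 UMIs (limit 0.130 CPM, the level of 3 counts), and Krt14 and Krt17 had 1 UMI each. That library held 1 cell of the club class.

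Endothelial cells are not known for the 4 simple keratins and serve as the comparison for low levels; how much of their counts is stray RNA was not tested. Krt8 was at 0.920, 2.69 and 2.75 CPM in the endothelial class of the 3 libraries, Krt18 at 0.805, 8.07 and 5.50 CPM, Krt7 at 2.13, 9.02 and 5.15 CPM and Krt19 at 0.920, 4.27 and 2.06 CPM. At least 1 Krt8 UMI was found in 0.251%, 1.13% and 1.68% of endothelial cells, with median depths of 3034, 3738.5 and 5383.5 UMIs. The same share in alveolar type 2 cells was 76.1%, 61.1% and 66.6%, with median depths of 8232.5, 7138 and 8837 UMIs. After thinning every cell to 1000 UMIs, Krt8 was seen in 17.4%, 17.6% and 18.1% of alveolar type 2 cells and in at most 0.464% of endothelial cells of any library. Barcodes of 1 to 100 UMIs, which hold mostly free RNA, had Krt8 at 27.0, 227.0 and 300.3 CPM.

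The balance of type I and type II keratin UMIs differed between classes. Summed type I UMIs were 0.977 times the summed type II UMIs in early (0.948 to 1.01) and 0.909 times in late alveolar type 2 cells (0.885 to 0.933), and 0.928 and 0.908 times in ciliated cells. They were 0.590, 0.686 and 0.751 times in alveolar type 1 cells, where Krt7 led. Mammary cells had 2.03 times as many type I as type II UMIs (1.94 to 2.12), with 99.8% of type I UMIs on Krt18 and nearly all type II UMIs on Krt8, and club cells had 2.77 and 2.44 times as many. Alveolar type 2 and ciliated cells therefore lay near equality, alveolar type 1 cells on the type II side, and mammary and club cells on the type I side.

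**Figure D2:**
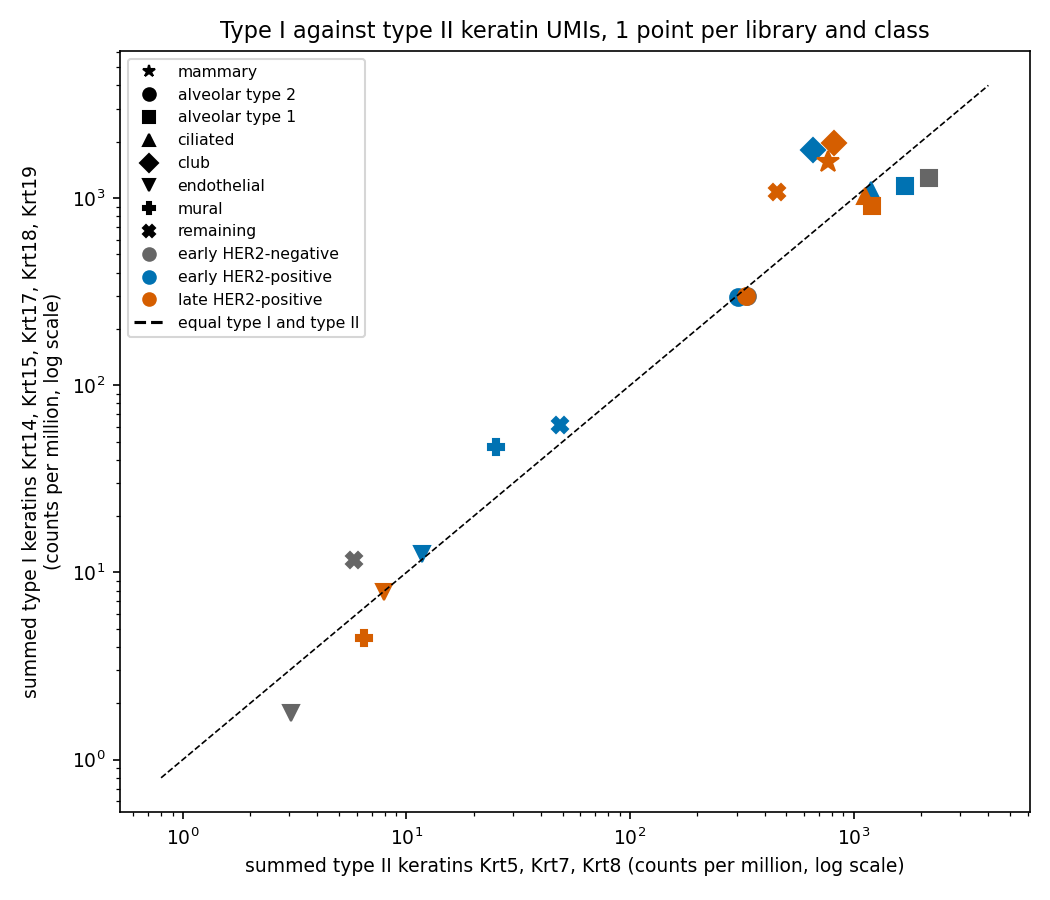
Summed type I keratin UMIs against summed type II keratin UMIs, both in CPM on log axes, 1 point for each library and class of at least 45 cells, with the dashed line at equality. Alveolar type 2 and ciliated points lie near the line or just below it, alveolar type 1 points further below it, and the mammary and club points above it.

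Krt8 and Krt18 were also set against each other within a class. Krt18 UMIs were 1.08 (early) and 0.946 (late) times the Krt8 UMIs in alveolar type 2 cells, 0.572 and 0.530 times in ciliated cells and 2.13 times (2.03 to 2.23) in mammary cells. After thinning, both genes were seen in 36.6% of mammary cells, in 5.13% and 5.18% of early and late alveolar type 2 cells, and in 27.6% and 21.9% of ciliated cells. Among mammary cells, Krt18 was seen in 75.6% of cells with and 65.1% of cells without a thinned Krt8 UMI; among alveolar type 2 cells the shares were 29.1% and 16.9% (early) and 28.7% and 17.1% (late).

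The mammary class showed the luminal pair and no basal keratin. Every one of the 161 cells had a Krt18 UMI and 158 had a Krt8 UMI, at a median depth of 22179 UMIs, while Krt5, Krt14, Krt15 and Krt17 had 0 UMIs (limit 0.811 CPM). Of other luminal and progenitor genes, Epcam was at 3422 CPM, Kit at 133.8 CPM and Elf5 at 185.2 CPM. The myoepithelial markers were near 0: Trp63, the basal transcription factor, had 2 UMIs, Oxtr 6 UMIs, Acta2 11.6 CPM (32 of 43 UMIs in 1 cell) and Myh11 3.79 CPM. The hormone receptor gene Pgr had 0 UMIs and Esr1 10.8 CPM. The progenitor markers Aldh1a3 and Cd14 and the hormone sensing markers Prlr and Foxa1 were also counted and are not reported here.

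Compared with alveolar type 2 cells of the same late library, mammary cells had more Krt8 and Krt18 and less Krt7 and Krt19. A gene was counted as higher or lower at 1.5-fold or more with at least 10 UMIs over both sides; 65.6% of 13746 genes passed this, so the share of 4 of the 5 keratins tested (2 higher, 2 lower) is read against a high background of 45.2% higher and 20.4% lower. Krt18 was 6.42-fold higher (6.20 to 6.63), from 241.6 to 1550 CPM, and Krt8 2.85-fold higher (2.73 to 2.97), from 255.4 to 727.3 CPM. Krt19 was at 0.0431 times the alveolar type 2 level (0.0197 to 0.0820) and Krt7 at 0.522 times (0.437 to 0.618). Trimmed mean scaling, which moves the median of all genes by -0.63 on the log2 scale, gave 4.13-fold for Krt18 and 1.84-fold for Krt8, and 0.336 times for Krt7. Krt15 had 18 UMIs in alveolar type 2 cells and 0 in mammary cells, a difference that could not be seen at this depth. The median log2 ratio of the tested keratins was 0.72, and that of all genes 0.43.

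Genes around the filament were counted in the same comparison, to be read against the background of 45.2% of genes higher and 20.4% lower. Of 18 desmosome and cytolinker genes, which anchor keratins at junctions, 15 could be tested, 11 were higher and 2 lower in mammary cells; the median log2 ratio was 1.81. The desmosomal cadherin gene Dsg2 was at 60.8 against 2.13 CPM, the integrin gene Itga6 at 164.1 against 14.3 CPM and plakophilin gene Pkp3 at 50.3 against 8.99 CPM, while periplakin gene Ppl was at 12.4 against 53.2 CPM. Of the epithelial transcription factors, 8 of 14 tested were higher and 5 lower. The mammary factor genes Gata3 (299.6 against 0.738 CPM) and Tfap2c, which encodes an AP-2 factor (164.4 against 0.191 CPM), were higher, and the lung factor gene Nkx2-1 was lower (5.68 against 218.4 CPM). Among other intermediate filaments, 4 of 8 were higher and 2 lower, led by nestin gene Nes at 214.4 against 4.43 CPM.

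Cells near the mammary threshold also had high Krt18 and Krt8. The values just outside and inside it were those of 14 cells with the milk genes at 0.5 to 1% of UMIs, with Krt18 at 2122 CPM and Krt8 at 775.9 CPM, and of 23 cells at 1 to 2%, with 1445 and 852.4 CPM. A further group of late cells met no class rule: 28 remaining cells had 5 or more Krt8 and Krt18 UMIs, 3 or more Epcam UMIs and Sftpc under 1%. They were picked by Krt8 and Krt18, whose levels are therefore only descriptive (915.5 and 2583 CPM). In these cells Krt19 had 0 UMIs, as low as in mammary cells. Krt7 was at 131.8 CPM, above the 38.1 CPM of mammary and the 73.1 CPM of late alveolar type 2 cells. Gata3 was at 317.4 CPM, Trps1, a luminal transcription factor, at 949.7 CPM, Elf5 at 258.8 CPM and the lung factor Nkx2-1 at 0 UMIs. The same rule found 3 remaining cells in the early HER2-positive library, with Gata3, Trps1 and Elf5 at 0 UMIs, and 1 in the early HER2-negative library.

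In alveolar type 2 cells the keratins were nearly level between stages. Krt18 had 239.6 (early) and 241.6 CPM (late) in the HER2-positive libraries, a ratio of 0.991 (0.961 to 1.02), and Krt19 at 56.8 and 56.5 CPM, a ratio of 1.01 (0.942 to 1.07). Krt8 was at 0.871 times the late level (0.844 to 0.900) and Krt7 at 1.12 times (1.06 to 1.19), both under 1.5-fold. The 46 alveolar type 2 cells of the HER2-negative library, fewer than the 50 required for a comparison, had Krt8 at 258.5 CPM (208.4 to 317.0) and Krt18 at the same level, and its Krt8 interval overlaps both HER2-positive intervals. Of 7 keratins tested, 2 were counted as higher in early cells, at a background of 18.9% of 14230 genes (15.3% higher, 3.66% lower). These were Krt15 (26 against 18 UMIs, ratio 1.83, 0.963 to 3.53) and Krt17 (10 against 4 UMIs, ratio 3.16, 0.911 to 13.8), and both intervals include 1. All alveolar type 2 cells with 3 or more Krt15 UMIs, 3 early and 1 late, also carried Trp63 and 3 or more Cyp2f2 UMIs. With cells that met more than 1 class rule left out, neither keratin was counted, and Krt15 turned to 0.321.

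The neighbouring gene lists were counted in the same cells, at the same background of 15.3% of genes higher and 3.66% lower. Of 13 desmosome and cytolinker genes tested 1 was higher and 0 lower, with Dst at 91.3 and 82.3 CPM and Plec, the plectin gene, at 62.12 and 48.97 CPM. Of 13 epithelial transcription factors 2 were higher and 2 lower, a lower share above that background, with Nkx2-1 at 230.8 and 218.4 CPM. The median log2 ratios of these 2 lists were -0.011 and 0.080, against 0.103 for all genes. Of 9 other intermediate filaments 4 were higher and 1 lower: the muscle filament gene Des was at 53.4 and 7.84 CPM and Vim, the filament gene of mesenchymal cells, at 69.1 and 18.5 CPM. Des and Vim are filaments of mural cells, which were 1314 of the early and 924 of the late cells, and the part of stray mural RNA in their difference was not tested.

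The alveolar type 1 class had more Krt7 and Krt19 early than late. With cells rich in the club gene Scgb1a1 left out, both stayed higher early, but by less than 1.5-fold. With Scgb1a1 alone held under 1% of UMIs, the ratios were 1.13 (1.05 to 1.23) for Krt7 and 1.20 (1.07 to 1.34) for Krt19. Of 5 keratins tested in the whole class, 3 were higher and 0 lower early, at a background of 39.5% of 11091 genes (34.1% higher, 5.38% lower). Krt7 was 1.65-fold higher (1.53 to 1.78) and Krt19 1.59-fold higher (1.44 to 1.77), while Krt8 was at 0.955 times (0.851 to 1.07) and Krt18 at 0.872 times (0.778 to 0.977) the late level. The other keratin counted was Krt15, with 88 UMIs in 3 of 238 early cells and 1 UMI in 108 late cells. Its 2 early cells with 3 or more UMIs carried Trp63 and Cyp2f2, and with Sftpc under 1% of UMIs the ratio turned to 0.788. The median log2 ratio of all genes was 0.38. Under scaling by trimmed means, which moves it by -0.37, and with totals taken without genes over 1% of UMIs, Krt7 and Krt19 no longer passed 1.5-fold, and with cells that met more than 1 class rule left out 0 of 4 keratins did.

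Scgb1a1 made up at least 1% of UMIs in 7 early and 21 late cells of the class, which had it at 233300 and 529900 CPM and Krt7 at 165.4 and 103.4 CPM. With Sftpc alone held under 1% of UMIs, 173 early and 80 late cells had Krt7 at 1988 and 1011 CPM and Krt19 at 1057 and 509.9 CPM, but Scgb1a1 there was at 7148 and 243800 CPM. With Sftpc and Scgb1a1 each under 1%, chosen after seeing the data, 170 early and 64 late cells were left. In them 0 of 4 keratins tested passed 1.5-fold. The share of all genes passing there was not counted, so this has no background beside it. The median log2 ratio of all genes in these cells was 0.0045. Krt7 was then at 2045 and 1655 CPM (1.24, 1.14 to 1.34), Krt19 at 1084 and 776.8 CPM (1.40, 1.24 to 1.57), Krt18 at 461.4 and 383.1 CPM (1.20, 1.01 to 1.44) and Krt8 at 493.4 and 469.5 CPM (1.05, 0.896 to 1.24). The 47 such cells of the HER2-negative library had Krt7 at 2012 CPM and Krt19 at 961.0 CPM. Alveolar type 1 markers in these cells were not equal between stages, with early to late ratios of 1.14 for Ager, 1.27 for Aqp5, 1.01 for Emp2, 0.660 for Rtkn2 and 0.523 for Hopx.

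**Figure D3:**
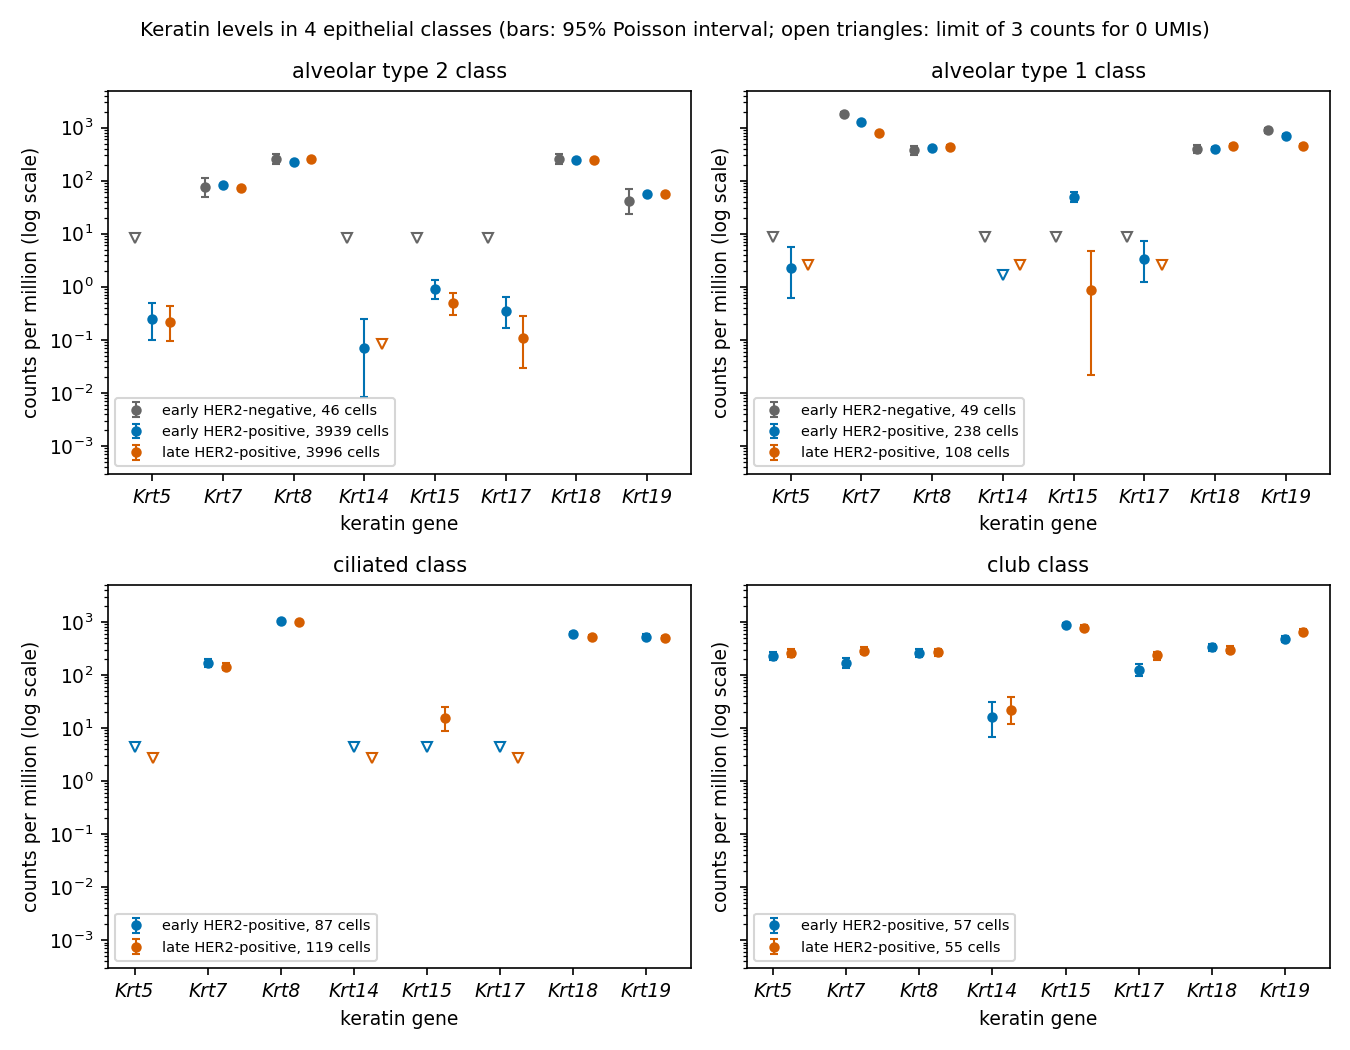
Level of each keratin gene (x axis) in CPM on a log axis in 4 epithelial classes, 1 point per library with a 95% Poisson interval; open triangles give the limit of 3 counts for genes at 0. In alveolar type 2 and ciliated cells the simple keratins of the libraries lie on each other, and in the whole alveolar type 1 class, whose late cells include 21 rich in Scgb1a1, Krt7 and Krt19 are lowest in the late library.

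Ciliated cells had the same simple keratins at both stages. Krt8 had an early to late ratio of 1.04 (0.947 to 1.15), Krt18 of 1.13 (0.989 to 1.28), Krt19 of 1.07 (0.933 to 1.22) and Krt7 of 1.17 (0.913 to 1.49), over 87 and 119 cells. Krt5, Krt14 and Krt17 had 0 UMIs in both libraries. Of 5 keratins tested 1 was counted, as lower early, at a background of 13.8% of 10235 genes higher and 11.2% lower: Krt15 had 0 early UMIs and 17 late UMIs, all in 1 cell, which carried Trp63 and Cyp2f2.

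The club class held cells with different keratins, and most of the cells with little Scgb1a1 had basal keratins, which went against its name. Split by Scgb1a1, the main secretory gene of club cells, at 10% of UMIs, 34 early and 34 late cells lay below and 23 and 21 above. Below it Krt15 was at 1782 and 1777 CPM, Krt19 at 681.1 and 1111 CPM, Krt5 at 464.9 and 596.3 CPM, Krt17 at 252.9 and 530.0 CPM and Krt14 at 32.6 and 50.7 CPM. These levels average over unlike cells, as some cells below the split had 0 UMIs of both Krt5 and Krt15 in each library. Above it Krt5, Krt14, Krt15 and Krt17 had 0 UMIs in both libraries, while Krt8 (291.5 and 194.5 CPM), Krt18 (283.7 and 164.1 CPM) and Krt19 (275.9 and 294.8 CPM) remained. Cyp2f2, which defines the class, was at 5832 and 5795 CPM below and at 4488 and 3932 CPM above. The basal markers, which the split did not use, followed the basal keratins: Trp63 was at 244.7 and 268.9 CPM below and had 0 UMIs above, Dapl1 was at 424.1 and 670.3 CPM against 0 UMIs, and Aqp3 at 420.1 and 662.5 CPM against 3.89 and 3.04 CPM.

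Within single cells the basal keratins went together. In the club class, 25 of 57 early and 25 of 55 late cells had a Krt5 UMI. Krt15 was seen in 24 and 25 of these and in 3 of 32 and 6 of 30 of the others, Trp63 in 20 and 18 against 2 and 2, Krt17 in 15 and 16 against 1 and 4, and Krt14 in 2 and 2 against 0 and 0. Krt19 did not separate them, with 23 and 25 cells against 22 and 21. The pattern was thus Krt5 with Krt15, often Trp63 and Krt17, and rarely Krt14.

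**Figure D4:**
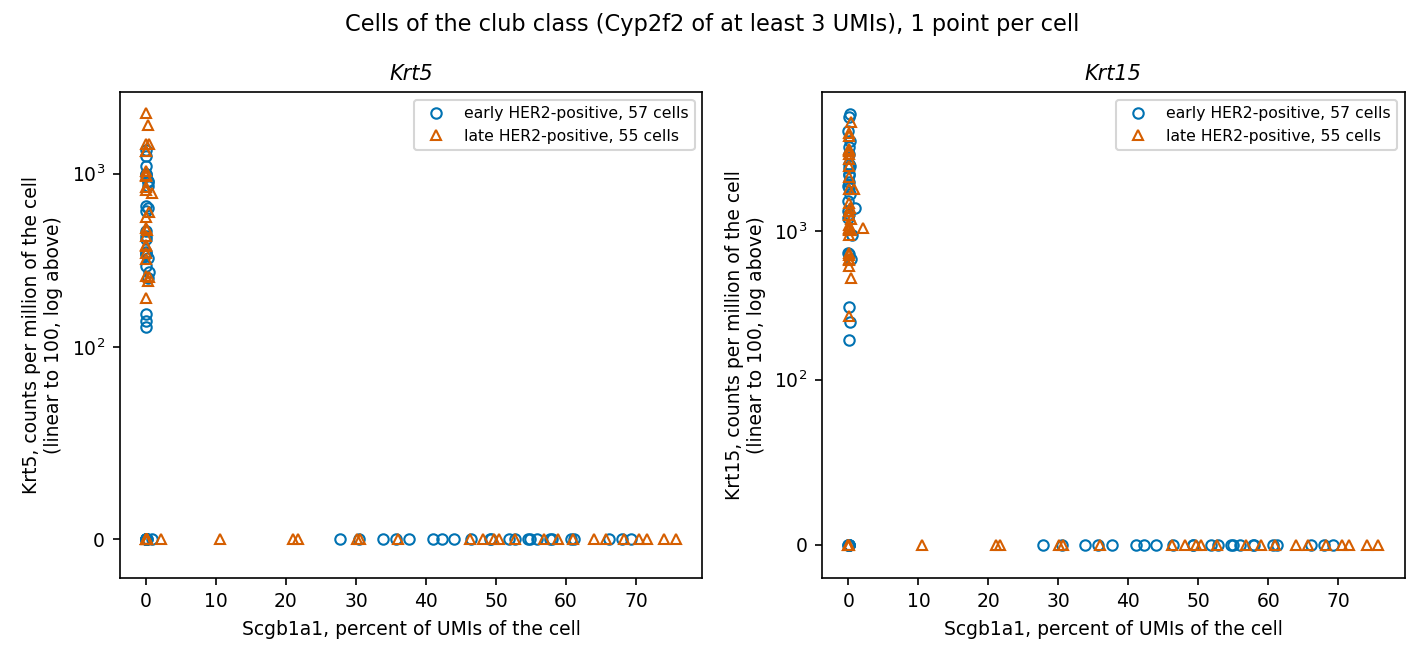
Krt5 (left) and Krt15 (right) in CPM of the cell, linear to 100 and log above, against Scgb1a1 in percent of the UMIs of the cell, 1 point for each of 57 early and 55 late club-class cells. Cells with Krt5 or Krt15 lie at the left edge with almost no Scgb1a1, and all cells with Scgb1a1 above 10% have 0 of both.

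Between stages, 2 of 8 keratins tested in the club class were lower early and 0 higher, at a background of 40.5% of 7714 genes (30.3% higher, 10.2% lower). Krt17 was at 0.531 times (0.387 to 0.723) and Krt7 at 0.593 times (0.451 to 0.775) the late level, and Krt19 at 0.726 times (0.615 to 0.856), while Krt15 (1.12, 0.977 to 1.28) and Krt5 (0.868, 0.675 to 1.11) had intervals that include 1. Under scaling by trimmed means, which moves the median of all genes by -0.28, Krt14 and Krt19 were counted as lower as well. In the cells with a Krt5 UMI, Krt8 was at 144.4 and 404.5 CPM, a ratio of 0.357 (0.224 to 0.555). In the other club-class cells Krt8 was at 330.5 and 194.6 CPM, a ratio of 1.70 (1.25 to 2.32). The near-equal Krt8 of the whole class (258.7 and 266.4 CPM) thus averages over opposite differences in these parts. The other cells were mixed in Scgb1a1, and single cells among them held up to 23 early and 19 late Krt8 UMIs. Their ratio without such cells was not taken. A single late cell held 29 of the 81 late Krt8 UMIs of the cells with a Krt5 UMI. Without the cell highest in Krt8 in each library their ratio was 0.456 (0.269 to 0.754).

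Over all kept cells, the keratins follow which classes each library holds, so these differences cannot be told apart from composition. All 8 keratins were higher in the early HER2-positive than in the early HER2-negative library, at a background of 57.9% of 15685 genes (22.0% higher, 36.0% lower). Krt8 was at 183.7 against 10.9 CPM (16.9-fold, 14.9 to 19.2), Krt18 at 189.6 against 11.2 CPM (17.0-fold), Krt19 at 80.6 against 16.3 CPM and Krt7 at 112.3 against 30.7 CPM. Krt15 was at least 95.5-fold and Krt5 at least 21.6-fold higher, against the limit of 3 counts in the library at 0. The HER2-negative library was mostly endothelial, with 5179 such cells against 46 alveolar type 2 and 49 alveolar type 1 cells.

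Between the HER2-positive libraries, over all cells, 1 keratin was higher and 2 were lower early of 8 tested, at a background of 25.3% of 16029 genes (17.1% higher, 8.24% lower). Krt18 was at 189.6 and 332.2 CPM (0.571, 0.556 to 0.586) and Krt8 at 183.7 and 278.1 CPM (0.661, 0.643 to 0.679). The mammary class held 33.8% of the late Krt18 UMIs and 18.9% of the late Krt8 UMIs in 161 of 6012 cells. Krt14 was 3.71-fold higher early (1.95 to 7.52), with 42 against 13 UMIs, and 76.2% of the early UMIs lay in 1 cell. Without that cell the ratio was 0.882.

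That cell met the mural rule and was unlike the other mural cells. It had 13219 UMIs, among them 79 of Krt17 (50.3% of all Krt17 UMIs of its library), 32 of Krt14, 63 of Krt18 and 57 of Krt8, with 0 of Krt5, Krt7, Krt15 and Krt19. It also had 31 UMIs of Epcam, 376 of Cd74, 159 of the class II gene H2-Ab1, 78 of the chemokine gene Ccl25, 49 of Ly6d, 12 of Myh11 and all 14 UMIs of Aire in the library. Aire is known from medullary thymic epithelial cells. Trp63, Ptprc, Csn3 and Wfdc18 had 0 UMIs.

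In the mural class all 6 keratins tested were higher early, at a background of 17.3% of 12165 genes (10.8% higher, 6.49% lower), and this rests in part on that cell. Without it 4 of 4 tested were higher. The UMIs were few, 32 against 17 for Krt8, 27 against 14 for Krt18, 24 against 9 for Krt7 and 9 against 3 for Krt19. The early and late CPM intervals overlapped for each of these genes. With that cell kept, Krt7 and Krt19 were not counted with equal weight per cell (Krt7 1.35-fold) or with background taken off. With it, Krt8 was 4.65-fold higher (19.7 and 4.24 CPM), Krt18 5.71-fold (20.0 and 3.49 CPM), Krt17 at least 23.4-fold and Krt14 at least 9.48-fold. Without it, Krt17 and Krt14 had 0 UMIs in the other 1313 cells. Krt8 was then at 7.12 CPM (4.87 to 10.05) and Krt18 at 6.01 CPM. In endothelial cells of the same library Krt8 was lower, at 2.69 CPM (1.57 to 4.31), and Krt18 was at 8.07 CPM. Endothelial cells had 2 of 4 keratins counted as higher early, at a background of 17.1% (10.6% higher, 6.46% lower), Krt7 (57 against 15 UMIs, ratio 1.75, 0.978 to 3.33) and Krt19 (27 against 6 UMIs, ratio 2.07, 0.839 to 6.14), and both intervals include 1.

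Of the remaining cells, 479 early and 173 late, 4 keratins could be tested: 3 were lower and 1 higher early, at a background of 41.2% (22.8% higher, 18.3% lower). Krt18 was at 42.2 and 1068 CPM and Krt8 at 33.1 and 389.6 CPM. The 28 late cells with mammary genes described above held 1058 of the 1072 late Krt18 UMIs. They were picked by Krt8 and Krt18 UMIs, which favours a high share. Krt19 was at 19.4 and 2.99 CPM (6.49-fold, 2.04 to 33.0). Cells with 3 or more UMIs of mesothelial markers, which mark the lung surface, had Krt19 at 514.7 CPM in 6 HER2-negative and 308.8 CPM in 5 early HER2-positive cells.

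Alveolar type 2 cells differed among themselves in how much Krt8 and Krt18 they held, and the other simple keratins went along. After thinning to 1000 UMIs, 108 early and 123 late cells had 3 or more Krt8 and Krt18 UMIs, and 2697 and 2714 cells had 0. Levels were then taken from the UMIs outside the thinned draw; Krt8 and Krt18 chose the cells and are not compared. Krt19 was 5.49-fold (246.8 against 44.95 CPM, 4.66 to 6.44) and 5.22-fold (223.0 against 42.8 CPM) higher in the keratin-rich cells of the early and late library. Krt7 was 3.82-fold (263.3 against 68.9 CPM) and 3.01-fold (179.0 against 59.5 CPM) higher. Krt23, the keratin of the files with most UMIs outside the 8, had ratios of 0.999 (0.783 to 1.26) and 1.21 (0.999 to 1.46).

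Genes of the transitional alveolar state, a keratin-rich state known from mouse lung repair between alveolar type 2 and type 1, were mostly higher in the same cells. In the early library 13 of 15 tested were higher and 2 lower, and in the late library 12 of 14 were higher and 1 lower, at backgrounds of 15.9% higher and 12.8% lower (early) and 17.1% and 10.0% (late). Areg, a growth factor gene for the epidermal growth factor receptor, was 8.37-fold and 12.5-fold higher, S100a6, a calcium-binding protein gene, 5.46-fold and 7.92-fold, Lgals3, the galectin 3 gene, 4.97-fold and 5.20-fold, and Sfn, a cell cycle inhibitor gene, 4.09-fold and 5.66-fold. The members that were lower were Ctgf (0.561 and 0.320 times) and, early only by the count, Fn1, which had 0 UMIs in the keratin-rich cells of both libraries. Of the desmosome and cytolinker genes, 9 of 13 and 7 of 13 were higher and 0 lower. No alveolar type 2 marker of 7 passed 1.5-fold in either library, with Sftpc at 0.928 and 0.890 times. The median log2 ratio of the transitional list was 2.03 and 2.44, against 0.13 and 0.16 over all genes.

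**Figure D5:**
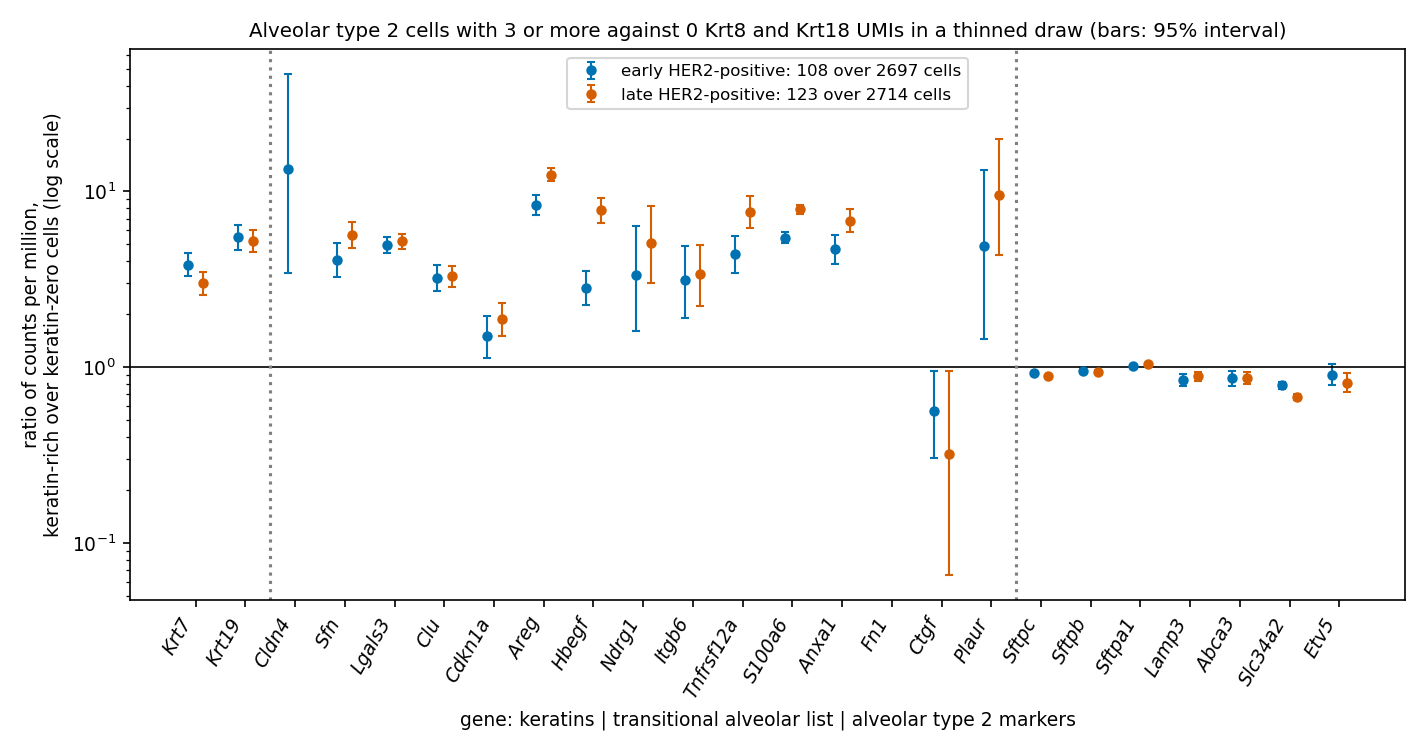
Ratio of levels in alveolar type 2 cells with 3 or more against 0 thinned Krt8 and Krt18 UMIs (log axis), with 95% intervals, for early (108 over 2697 cells) and late (123 over 2714 cells) HER2-positive libraries; a gene with 0 UMIs on a side has no point. Krt7, Krt19 and most transitional genes lie above 1, and the alveolar type 2 markers lie at or just under it.

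Markers of some other cell types also differed with keratin content in alveolar type 2 cells. Their counts are read against the same backgrounds of 15.9% higher and 12.8% lower (early) and 17.1% and 10.0% (late). Of 7 alveolar type 1 markers 5 (early) and 1 (late) were higher, with summed levels of 2761 against 1878 CPM and 2032 against 1734 CPM. The late share of 14.3% was under its background. Of the ciliated markers 3 of 4 and 5 of 5 were higher, with sums of 21.6 against 6.29 CPM and 52.0 against 8.07 CPM. Of the mammary luminal markers 0 of 2 (early) and 3 of 6 (late) were higher, and 0 and 1 were lower. Their sums were 321.8 against 221.8 CPM and 557.1 against 296.1 CPM. Of 4 club markers 2 (early) and 0 (late) were higher and 1 and 2 lower, with lower sums of 672.9 against 1004 CPM and 1386 against 2803 CPM, and so were endothelial sums, at 53.4 against 142.5 CPM and 7.93 against 56.9 CPM. Median depth was 8071 against 7078 UMIs and 9861 against 8696 UMIs. With every cell left out that had a UMI of a ciliated marker or of a mammary marker other than Epcam, 101 early and 88 late keratin-rich cells were left, the transitional counts were again 13 and 12, and Krt19 was 5.57-fold and 5.13-fold higher.

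The genes most like each keratin were ranked by Pearson correlation of log2(CPM + 10) over the 18 library and class groups of at least 50 cells, among 6889 genes; these groups share libraries, and the values are descriptive. Krt8 was most like Cldn7 (0.986), Krtcap3 (0.985) and Lsr (0.984), and Krt18 most like Epcam (0.989), St14 (0.987) and Rab25 (0.984), while Krt8 and Krt18 had 0.978 with each other. Krt7 was most like Mal2 (0.978), Rab11fip1 (0.960) and Cxadr (0.940). For Krt19, Eya2 (0.947) and Sec14l3 (0.943) were among the 3 genes most like it. Krt5 was most like Dlk2 (0.999), 4833423E24Rik (0.998) and Defb1 (0.996), Krt17 most like 4833423E24Rik (0.974), Defb1 (0.968) and Krt5 (0.964), and Krt15 most like Bpifb1 (0.989), Muc5b (0.987) and Scgb3a1 (0.983). The basal keratins rest on the 2 club groups, so their values say little more than that these genes are high there.

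Of the 43 other keratin genes in the files, 22 had 0 UMIs in kept cells, 15 had 1 to 9 and 3 had 10 to 99. The 3 with 100 or more had patterns of their own. Krt23 (6239 UMIs) was at 109.6, 95.2 and 89.5 CPM in alveolar type 2 cells of the 3 libraries and at 10.8 CPM in mammary cells. Krt80 (767 UMIs) was at 26.1, 23.3 and 24.4 CPM in endothelial cells and at 0.656 and 0.765 CPM in HER2-positive alveolar type 2 cells. Krt10 (1536 UMIs) was at 5.80 to 29.6 CPM in the classes of at least 45 cells.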

How the data were processed

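Values are unnormalised UMI counts per gene and barcode, deposited as unfiltered matrices. The headers name version 3.1.0 of the counting software, per the file headers; the build was mm10 (submitters' processing notes). No aligner is named in the labels used. Each library was summed as counts per class and divided by the class total (CPM). Classes follow marker rules, first match; the members, rules and gene lists were chosen with earlier results of these data known. Lists are described by counts past 1.5-fold with at least 10 UMIs over both sides and by medians; a side at 0 was set to 3 counts. Ratio intervals are exact conditional, CPM intervals exact Poisson, at 95%. Classes of at least 50 cells were compared. Genes of the lists were named when at least 50 CPM on a side and among the 3 highest or lowest ratios; of the keratin-rich comparison, genes were chosen after their values were seen. Doublets were not removed in the reported values; Scrublet's threshold marked 0.0312%, 5.14% and 0.865% of cells, and an alternative removed 329, 465 and 289 by score. Counting and interval steps were tested on simulated data. Python 3.11.15, numpy 2.4.6, scipy 1.17.1, pandas 2.3.3, scanpy 1.11.5 and matplotlib 3.10.9 were used. Some genes that met the naming rule are not reported here.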

Additional observations from a re-analysis of the deposited data

Results flagged for a closer look

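Some keratins had opposite early to late differences in different classes, which were not tested against each other. Krt7 was higher early in alveolar type 1 cells (1.65) and mural cells (2.37) and lower early in club cells (0.593) and in the remaining cells (0.246). Krt8 was at 4.65 in mural cells and 0.0850 in the remaining cells, and Krt18 at 5.71 and 0.0396. The mural values of Krt8 and Krt18 rest largely on 1 cell, and the remaining values on 28 late cells with mammary genes, which were picked by these keratins. The alveolar type 1 value of Krt7 was 1.24 with Sftpc and Scgb1a1 each under 1% of UMIs, and the mural value of Krt7 was 1.35 with equal weight per cell.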

How the results depend on the processing

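No paired analysis was possible because each group is 1 library. Of 686 ratios of single keratins recomputed under other settings, 578 stayed within their counting interval, 104 moved and 4 turned: Krt15 in alveolar type 2 cells to 0.321 without cells meeting more than 1 class rule and to 0.711 with background taken off, Krt15 in alveolar type 1 cells to 0.788 with Sftpc under 1%, and Krt14 over all cells to 0.882 without 1 mural cell (the last 2 settings, the limit on Sftpc and Scgb1a1 and the removal of cells with ciliated or mammary UMIs were chosen after seeing the data). The 2 keratins counted in alveolar type 2 cells became 0 without cells meeting more than 1 rule and 1 with doublets removed. Over all HER2-positive cells 3 became 5 under 10% mitochondrial UMIs and 5 without cells meeting more than 1 rule; the cause was not tested. The 13 and 12 transitional genes were recounted under 1 other setting only, without cells with a ciliated or mammary UMI, and stayed the same. They were not recounted without doublets or without cells meeting more than 1 rule. The counts of 8 against the HER2-negative library and 4 for mammary cells stayed within 1.5 times. The 18 calls over the other classes did so only as a sum: alveolar type 1 went from 3 to 0 without cells meeting more than 1 rule or with Sftpc and Scgb1a1 each under 1%, and to 1 under trimmed means or totals without genes over 1%; club from 2 to 4 under these scalings; ciliated from 1 to 0 under 10% mitochondrial UMIs or without its highest cell; endothelial from 2 to between 1 and 3; and mural from 6 to between 4 and 7. Basal keratins in alveolar cells rest on few cells, and class rules were rebuilt from markers.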
